A study of Mus musculus with 6 samples.

Results

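The genes described here are 10 members of the interferon pathway, namely 7 interferon regulatory factors (Irf1, Irf2, Irf3, Irf5, Irf7, Irf8 and Irf9) and 3 interferon receptor chains (Ifnar1, Ifnar2 and Ifngr1). They were chosen by symbol from a table of raw counts for 24348 genes, and all 10 passed the filter on low counts (at least 10 counts in at least 3 libraries) that left 19925 genes for testing. The table comes from bulk RNA-seq of fibroblasts sorted from the synovium, the lining tissue of the joint. The cells came from adult wild-type C57BL/6 mice (C57BL/6J per the study's methods) that had received immune complexes (IC), antibodies bound to their antigen, or a control injection into a vein. There were 3 IC libraries and 3 Vehicle libraries, and the comparison addressed how synovial fibroblasts respond when IC circulate. The sources used here do not give the interval between injection and sampling for these libraries, the markers used to sort the cells, or whether each library came from 1 mouse, so p-values measure the spread between these samples, which may be technical.

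Interferons act through paired receptor chains at the cell surface. IFNAR1 and IFNAR2 together bind type I interferons (alpha and beta), whereas IFNGR1 binds interferon gamma with its partner IFNGR2. Janus kinases attached to these chains phosphorylate STAT proteins. STAT2 and IRF9 are parts of ISGF3, the complex that switches on the antiviral genes through a DNA element called ISRE, while STAT dimers bind a different element, GAS. The remaining regulatory factors work before or after that step. IRF3, IRF5 and IRF7 are activated by sensors of nucleic acids and drive transcription of the interferons themselves, IRF1 and IRF2 share target sites with IRF1 as activator and IRF2 mainly as repressor, and IRF8 is best known from macrophages, dendritic cells and B cells.

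Libraries held 40114331 to 56714304 counts each. Across all genes tested, 419 (2.1%) had an adjusted p under 0.05 in the Wald test of DESeq2, of which 205 (1.03%) were higher and 214 (1.07%) lower after IC. The median log2 fold change of all genes was -0.002. IC replicate 3 stood apart for genes induced by interferon, as described further on. Among fibroblast markers, all 12 listed genes were in the table, with a summed level of 47449 to 49317 CPM (counts scaled to a fixed total per library) in the IC libraries and 48201 to 58470 CPM in the Vehicle libraries. Of these markers Prg4, the gene of the joint lubricant lubricin, rose (log2 fold change 0.94, adjusted p = 0.0103 in DESeq2), and the matrix genes Col3a1 (-0.38, adjusted p = 0.00679) and Lum (-0.36, adjusted p = 0.00250) fell.

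None of the 10 genes passed the threshold in DESeq2, against 2.1% of all genes, and none passed it in edgeR's quasi-likelihood test (0.186% of all genes) or in limma. At an unadjusted p under 0.05 each of the 3 tools counted 2 of them, Irf7 and Irf9, whereas DESeq2 counted 1952 of all 19925 genes (9.8%) there. Irf9, Irf7 and Irf1 were higher in every IC library than in any Vehicle library, which was so for 8.09% of all genes, and Irf2 was lower in every IC library, which was so for 7.67%, so that 4 of 10 did not overlap, against 15.8% of all genes. For the other 6 genes the groups overlapped. The median log2 fold change of the 10 genes was 0.05, with 8 of 10 estimates above 0. In bulk RNA, fewer cells of a type and less RNA per cell cannot be told apart, and that holds for every value given here.

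**Figure D1:**
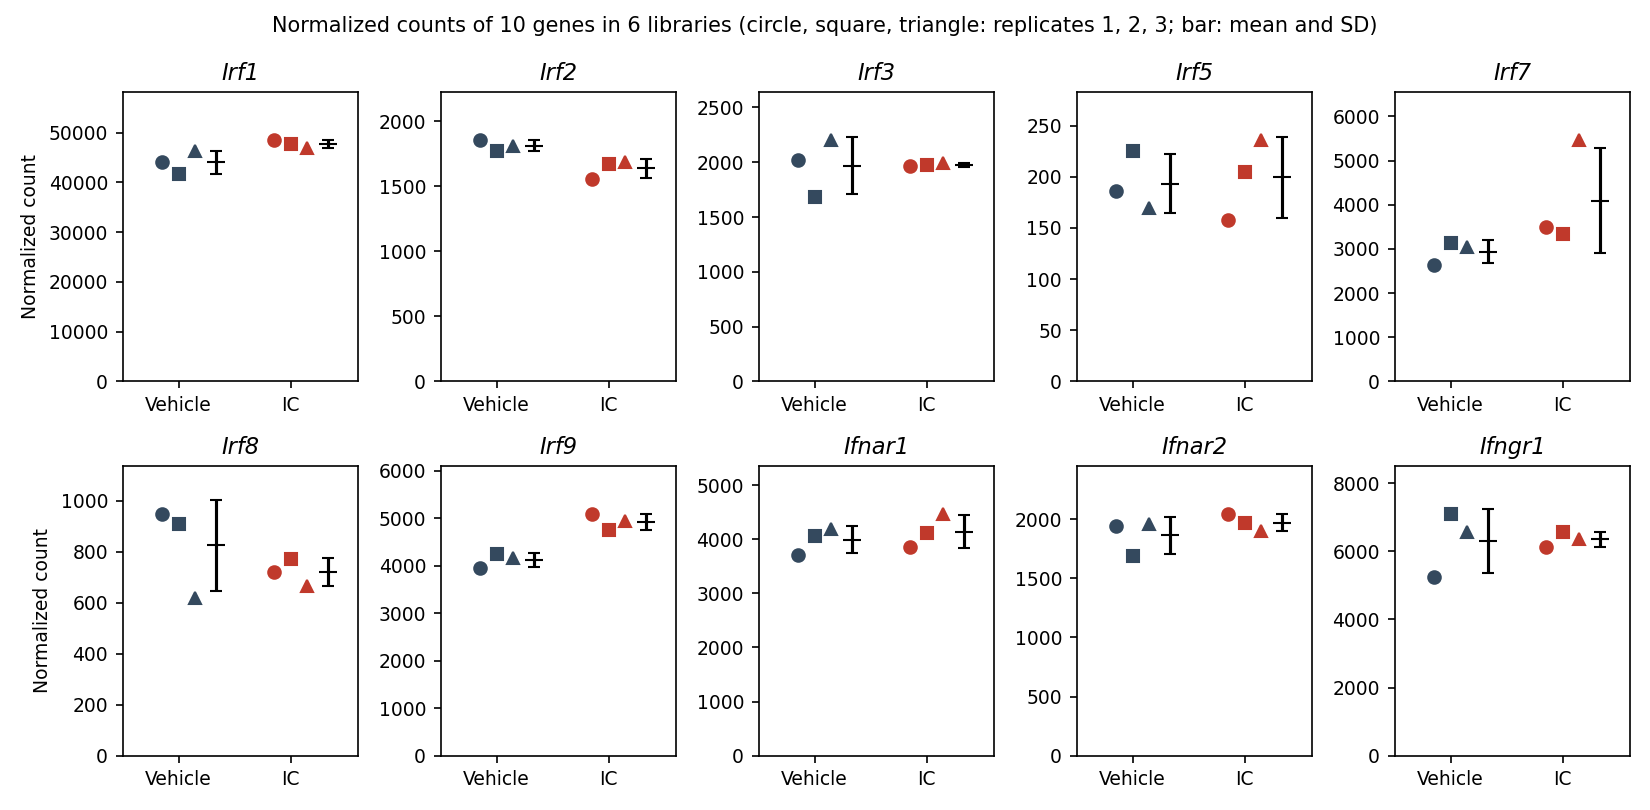
Normalized counts (counts divided by the library's DESeq2 size factor, linear axes from 0) of the 10 genes in the 3 Vehicle and 3 IC libraries, with the group mean and SD as a bar beside the points. The 3 IC points lie above all Vehicle points for Irf1, Irf7 and Irf9 and below them for Irf2, and the IC replicate 3 point of Irf7 at 5461 lies far above the other 5.

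**Figure D2:**
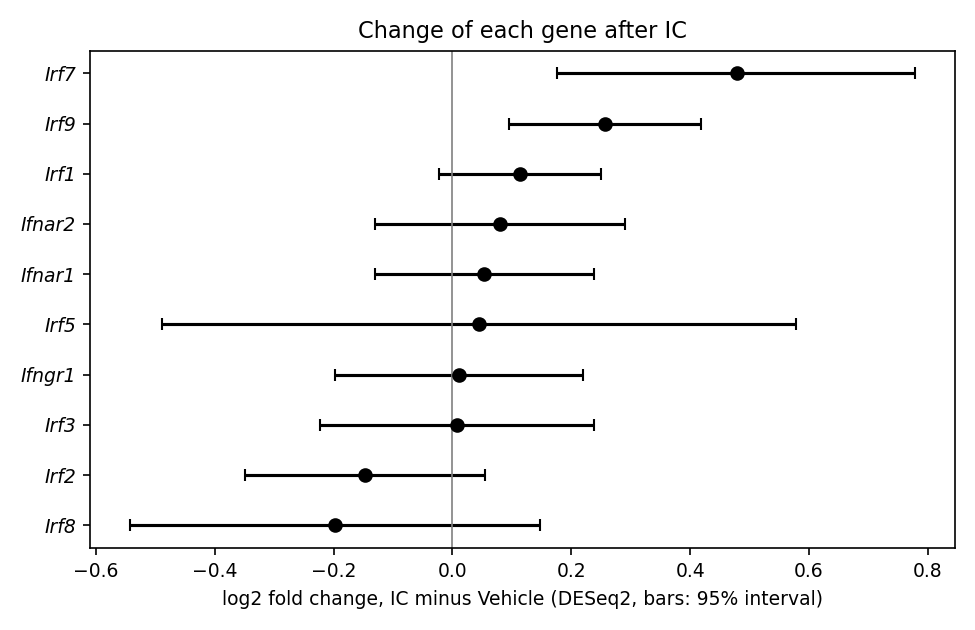
Log2 fold change of each gene, IC minus Vehicle, on the horizontal axis, with its 95% interval (normal approximation) from DESeq2. The intervals of Irf7 (0.18 to 0.78) and Irf9 (0.10 to 0.42) lie above 0 before adjustment over all genes, and the other 8 include 0.

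Irf9 encodes the DNA-binding subunit of ISGF3. Its normalized counts were 5078, 4749 and 4951 in IC replicates 1 to 3 and 3955, 4255 and 4160 in Vehicle replicates 1 to 3. The 3 IC values were close together, and the lowest of them exceeded the highest Vehicle value. The group means were 4926 ± 166 (SD, n = 3) and 4123 ± 154 (SD, n = 3). On the log2 scale the difference was 0.26 (standard error 0.08), or 1.19-fold (95% interval 1.07 to 1.34). The DESeq2 adjusted p was 0.0637, from an unadjusted p of 0.00185 that was the 482nd smallest of all genes, and the edgeR adjusted p was 0.214. The estimate moved little when any 1 library was left out, from 0.23 to 0.28, with adjusted p between 0.0607 and 0.241 in DESeq2. It passed the threshold when libraries were scaled to their total counts (adjusted p = 0.0312 in DESeq2) or when genes with a mean normalized count under 100 were dropped (adjusted p = 0.0498).

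Irf7 encodes the regulatory factor that amplifies type I interferon production and is itself an interferon-induced gene. Normalized counts were 3485, 3335 and 5461 in the IC libraries and 2647, 3137 and 3040 in the Vehicle libraries. IC replicates 1 and 2 lay just above the Vehicle range, at 1.19 and 1.13 times the Vehicle mean, whereas IC replicate 3 lay at 1.86 times that mean. The group means were 4094 ± 1186 (SD, n = 3) and 2941 ± 260 (SD, n = 3), a difference of 0.48 on the log2 scale (standard error 0.15), or 1.39-fold (95% interval 1.13 to 1.72). The adjusted p was 0.0656 in DESeq2 and 0.330 in edgeR. Without IC replicate 3 the log2 fold change was 0.22 with a DESeq2 adjusted p of 0.511, and without IC replicate 2 it was 0.61 with an adjusted p of 0.0298. The other fits without 1 library also did not call it, with adjusted p of 0.0692 without IC replicate 1 and 0.671, 0.672 and 0.313 without Vehicle replicates 1, 2 and 3, and 1 surrogate variable as a term gave a log2 fold change of 0.53 with a DESeq2 adjusted p of 0.615. As for Irf9, scaling to total counts (adjusted p = 0.0491 in DESeq2) and the filter at a mean of 100 (adjusted p = 0.0498) each brought it past the threshold.

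**Figure D3:**
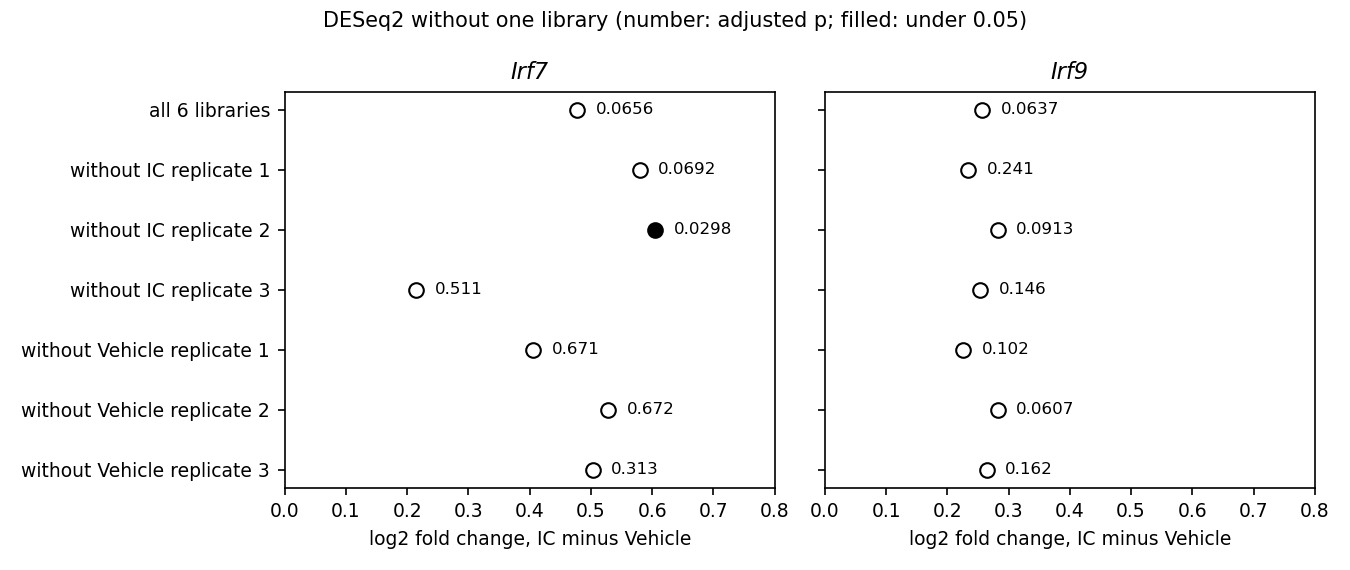
Log2 fold change of Irf7 and Irf9, IC minus Vehicle, on the horizontal axis, with all 6 libraries and with each library left out in turn; the number beside each point is the DESeq2 adjusted p, and a filled point is under 0.05. Irf7 ranges from 0.22 without IC replicate 3 to 0.61 without IC replicate 2, whereas Irf9 stays between 0.23 and 0.28.

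Irf1 was the most abundant of the 10 genes. It encodes an activator of genes for antigen presentation and antiviral defence, and its own transcription is induced by interferon gamma. Normalized counts were 48486, 47732 and 47005 after IC and 44132, 41784 and 46393 after Vehicle. The groups did not overlap, but Vehicle replicate 3 lay only just under the lowest IC value. The means were 47741 ± 740.5 (SD, n = 3) and 44103 ± 2305 (SD, n = 3), and the log2 fold change of 0.11 (95% interval -0.02 to 0.25) had an adjusted p of 0.590 in DESeq2. An increase of up to 1.19-fold lies inside that interval.

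Irf2, the counterpart of Irf1 at shared sites, had normalized counts of 1557, 1668 and 1686 after IC and 1854, 1773 and 1812 after Vehicle. All 3 IC values were below all Vehicle values, with means of 1637 ± 70.1 (SD, n = 3) and 1813 ± 40.5 (SD, n = 3). The log2 fold change of -0.15 (95% interval -0.35 to 0.06) had an adjusted p of 0.686 in DESeq2.

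The DNA before the start of these genes was searched for the cores of the elements named above, since ISRE is the element bound by the regulatory factors and ISGF3, and GAS that of STAT dimers. The ISRE core was spelled GAAANNGAAA and searched on both strands, and the GAS core was spelled TTCNNNGAA, which reads the same on both. RefSeq windows from 250 bases before to 50 bases after the transcription start were matched for all 10 genes (13 windows, assembly GRCm38.p6). The ISRE core was present for 1 of the 10 genes, Irf2, and for 3.99% of all 27025 genes, and the GAS core for 5 of the 10 genes and 9.55% of all genes. The following stretches of 60 bases from the plus strand, on which these genes lie, are shown because they hold the matches upstream of the start, with the matched cores in capitals.
Irf1, chr11:53769898-53769957: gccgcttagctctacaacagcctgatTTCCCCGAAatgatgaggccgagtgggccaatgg
Irf2, chr8:46739495-46739554: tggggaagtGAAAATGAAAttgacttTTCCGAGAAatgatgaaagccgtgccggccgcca
Irf8, chr8:120736170-120736229: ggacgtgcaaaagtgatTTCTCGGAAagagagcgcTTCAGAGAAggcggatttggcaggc
Ifnar2, chr16:91372543-91372602: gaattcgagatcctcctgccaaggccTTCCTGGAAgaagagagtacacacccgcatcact
In Irf1 the GAS core lay 90 to 82 bases before the start. Irf2 held both elements side by side, the ISRE core at 241 to 232 and the GAS core at 224 to 216 bases before the start, and Irf8 held a pair of GAS cores. Ifnar1 held a GAS core that spanned its start, so that with only the 250 upstream bases 4 of the 10 genes held GAS, against 8.13% of all genes. The windows of Irf7 and Irf9, the genes with the smallest p-values, held neither core, nor did those of Irf3, Irf5 and Ifngr1. The Irf9 windows began at chr14:55603735 and chr14:55604329. Both lie after the start of the gene in the GENCODE annotation, chr14:55603571, and the bases before that start were not searched. A match describes letters in these windows and was not tested for binding, and no match says only that those letters are not in the window.

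Irf3 and Irf5 act downstream of the sensors, Irf3 mainly after sensors of cytosolic nucleic acid and Irf5 mainly after Toll-like receptors. Irf3 had normalized counts of 1965, 1972 and 1997 after IC, inside the Vehicle range of 2016, 1686 and 2201, with a log2 fold change of 0.01 (95% interval -0.22 to 0.24) and a DESeq2 adjusted p of 0.996. Irf5 was the least abundant, at 158, 205 and 236 after IC and 186, 225 and 169 after Vehicle. Its groups overlapped fully, and with these low counts the interval of its fold, 0.712 to 1.49 around 1.03, was the widest of the 10 (adjusted p = 0.988 in DESeq2). Exons of Irf5 share 411 bases (14.1% of its exon bases) with Tnpo3 on the opposite strand, and as the strand setting of the counting is not stated, reads from the 2 genes there cannot be told apart.

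Irf8 had normalized counts of 722, 774 and 667 after IC and 947, 909 and 620 after Vehicle. Vehicle replicates 1 and 2 were the highest and Vehicle replicate 3 the lowest of all 6, so the groups overlapped. The log2 fold change was -0.20 (95% interval -0.54 to 0.15), with an adjusted p of 0.805 in DESeq2. Because Irf8 is known from leukocytes, their markers were read beside it. Of 17 macrophage markers 10 were in the table, with a summed level of 32.8 to 51.0 CPM after IC and 41.1 to 52.1 CPM after Vehicle, and most of that sum was Cd68 (21.9 to 31.4 CPM) and Lyve1 (8.13 to 18.6 CPM). Other macrophage genes were near 0, with Csf1r at 0.728 to 1.57 CPM, Spi1 at 0 to 0.499 CPM and C1qb at 0 to 0.074 CPM. Irf8 itself was at 12.7 to 20.4 CPM. CPM are not scaled to gene length, so these values do not compare levels between genes. Dendritic cell markers (4 of 10 in the table) summed to 13.8 to 19.3 CPM after IC and 13.3 to 18.0 CPM after Vehicle, nearly all of it Zbtb46 (11.6 to 16.2 CPM), while H2-Ab1, H2-Aa and Cd74 were at most 0.767, 1.15 and 1.22 CPM. Lymphocyte markers (3 of 10) summed to 2.67 to 3.69 CPM in the IC group and 6.53 to 8.90 CPM in the Vehicle group, lower in all IC libraries. Of the 2 tested, DESeq2 called Ighm lower (log2 fold change -1.98, adjusted p = 1.86e-05), at 0.653 to 5.98 CPM over the 6 libraries. Cd79a did not pass (-0.39, adjusted p = 0.836 in DESeq2). The part of these cells in the Irf8 level was not tested.

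The receptor chains overlapped between the groups. Ifnar1, the chain of the type I receptor that carries TYK2, had normalized counts of 3850, 4110 and 4458 after IC and 3715, 4060 and 4194 after Vehicle. Ifnar2, the chain that binds the ligand more tightly and carries JAK1, had 2041, 1972 and 1897 after IC and 1942, 1686 and 1962 after Vehicle. The values of both chains overlapped between the groups, with a log2 fold change of 0.05 (95% interval -0.13 to 0.24, DESeq2 adjusted p = 0.932) for Ifnar1 and 0.08 (-0.13 to 0.29, adjusted p = 0.899) for Ifnar2. Ifngr1, the ligand-binding chain for interferon gamma, had 6133, 6577 and 6352 after IC and 5260, 7084 and 6580 after Vehicle. The IC values of Ifngr1 lay inside the Vehicle range, with a log2 fold change of 0.01 (95% interval -0.20 to 0.22) and an adjusted p of 0.993 in DESeq2. The intervals of the folds spanned 0.913 to 1.18 for Ifnar1, 0.913 to 1.22 for Ifnar2 and 0.872 to 1.16 for Ifngr1. Exons of Ifnar2 share 315 bases (9.46% of its exon bases) with Gm21970 on the same strand, so its counts there are uncertain. The same holds for smaller shares of other genes described above. Irf9 shares 2.28% of its exon bases with Rnf31 on the same strand. On the opposite strand Irf1 shares 3.4% with Gm17334, Irf3 2.56% with Bcl2l12 and Irf7 1.19% with Phrf1.

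Levels were compared between genes per length, as CPM divided by kilobases of exon (RPKM). Irf1 stood first at a mean of 286 RPKM (254 to 303 over the 6 libraries), above 99.5% of genes with a length. Ifngr1 followed at 62.3 RPKM (53.6 to 68.1), and its range overlapped neither that of Irf1 nor that of the next gene. Irf7 (30.5 RPKM, 23.8 to 47.1) and Irf9 (30.3 RPKM, 27.4 to 34.1) could not be ordered. Their ranges overlapped, and Irf7 exceeded Irf9 only in IC replicate 3, where the ratio of Irf7 to Irf9 was 1.43, against 0.868 to 0.956 in the other 5 libraries. Below them, and separate from them in range, came Ifnar1 (21.6 RPKM, 20.4 to 23.6), Irf3 (18.8 RPKM, 15.6 to 20.6), Irf2 (14.4 RPKM, 13.0 to 16.0) and Ifnar2 (12.6 RPKM, 10.8 to 13.4), each overlapping the next in range. Irf8 was at 4.69 RPKM (3.70 to 5.93) and Irf5 at 1.54 RPKM (1.24 to 1.84), and both were separate in range from the gene before them. Ifngr1 was 2.62 to 3.23 times Ifnar1 within a library, and Ifnar2 was 0.511 to 0.653 times Ifnar1, with overlap between the groups in both ratios.

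**Figure D4:**
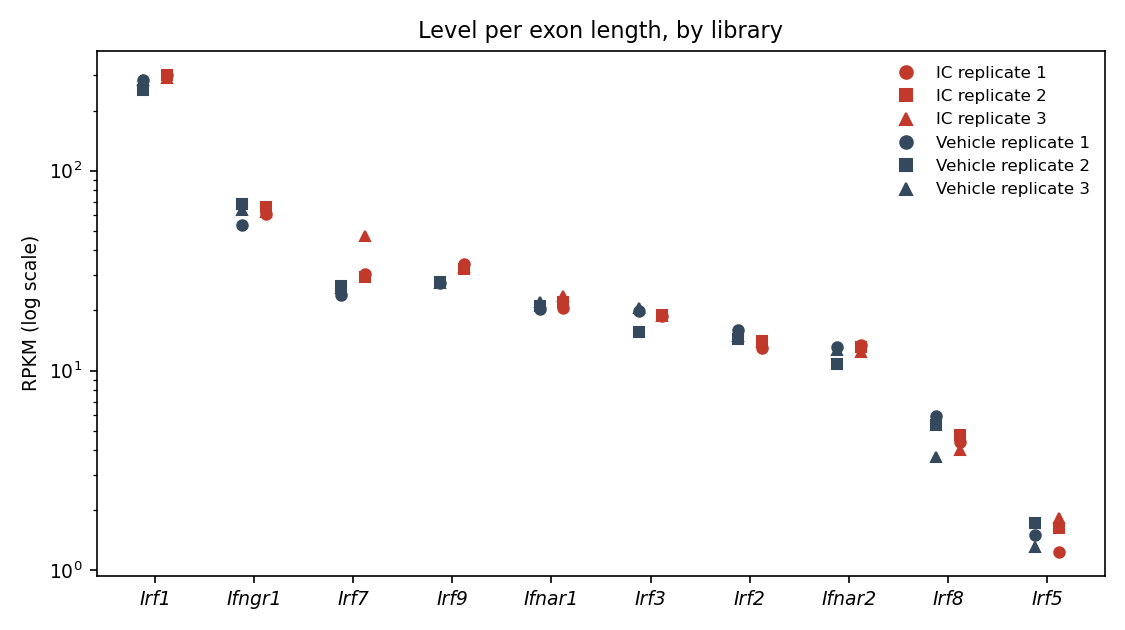
Level of each gene in RPKM on a log axis, by library, with red for IC, dark blue for Vehicle and the marker shape for the replicate. The genes run from Irf1 at a mean of 286 RPKM to Irf5 at 1.54 RPKM, and Irf7 in IC replicate 3 (47.1 RPKM) is the one point of Irf7 far above its other 5.

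The remaining regulatory factors and receptor chains did not pass the test either. Of the 4 further genes of this kind (Irf4, Ifngr2, Ifnlr1 and Il10rb), none passed the threshold in DESeq2, edgeR or limma. The same tools called 419, 37 and 62 of all 19925 genes. At an unadjusted p under 0.05, DESeq2 and edgeR each counted 0 of the 4 and limma 1, against 1952, 1920 and 2050 of all genes. Irf4, a factor best known from lymphocytes, had 1473, 1106 and 1433 normalized counts after IC and 1537, 1532 and 1753 after Vehicle, lower in all 3 IC libraries (log2 fold change -0.27, 95% interval -0.53 to 0.00, adjusted p = 0.441 in DESeq2). Il10rb, a chain shared by the receptors for interferon lambda and interleukin-10, was higher in all 3 IC libraries, at 982, 884 and 1029 against 877, 882 and 874 (log2 fold change 0.14, adjusted p = 0.831). Of all genes, 8.09% were higher and 7.67% lower in every IC library. Ifngr2, the signalling partner of Ifngr1, overlapped between the groups (log2 fold change -0.03, adjusted p = 0.982). The 20 interferon ligand genes listed were not among the 24348 genes with counts, so they could not be tested. The sources used here do not say why.

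Among the 5 kinases and STATs next to the receptors, Stat2 rose (1 of 5, against 1.03% of all genes called higher) and the other 4 did not pass the test. At an unadjusted p under 0.05 each of the 3 tools counted 2 of the 5, against 9.8% of all genes in DESeq2. Stat2, the partner of IRF9 in ISGF3, had normalized counts of 7418, 6651 and 9854 after IC and 5695, 5064 and 5784 after Vehicle. All 3 IC values lay above the Vehicle values, with IC replicate 3 the highest, and the log2 fold change was 0.53 ± 0.12 (standard error; adjusted p = 0.00197 in DESeq2 and 0.137 in edgeR). The call was lost only without Vehicle replicate 2 (adjusted p = 0.0658 in DESeq2) among the fits that left out 1 library, and without IC replicate 3 the log2 fold change was 0.35 (adjusted p = 0.0286). Stat3 (log2 fold change 0.23, adjusted p = 0.216 in DESeq2), Tyk2 (0.14, adjusted p = 0.701) and Jak1 (0.06, adjusted p = 0.876) also had estimates above 0, as did Jak2, and the median of the 5 was 0.14.

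Upstream of Irf3 and Irf7, 17 sensors, adaptors and kinases were tested, and 1 of them (5.88%) rose and none fell, against 1.03% and 1.07% of all genes, so that the count rests on a single gene. At an unadjusted p under 0.05 DESeq2 counted 5 of the 17 (29.4%), against 9.8% of all genes, and edgeR and limma each counted 4. Ddx58, which encodes the RNA sensor RIG-I, had 3206, 3047 and 5028 normalized counts after IC and 2368, 2286 and 2691 after Vehicle. The IC libraries were all above the Vehicle libraries, again with IC replicate 3 at the top, and the log2 fold change was 0.62 ± 0.16 (standard error; adjusted p = 0.00587 in DESeq2 and 0.185 in edgeR). Ddx58 had a log2 fold change of 0.35 when IC replicate 3 was left out, with an adjusted p of 0.0711, without Vehicle replicate 1 it was 0.444, and without Vehicle replicate 2 it was 0.606 in DESeq2. Dhx58, a regulator of RIG-I (log2 fold change 0.78, adjusted p = 0.0793; 0.36 without IC replicate 3), and Tmem173, which encodes the adaptor STING (0.34, adjusted p = 0.0796; 0.27 without IC replicate 3), did not pass. With 1 surrogate variable the call passed from Ddx58 (adjusted p = 0.538 in DESeq2) to Dhx58 (adjusted p = 0.0418). Of 12 negative regulators, 1 (8.33%) rose and none fell, against 1.03% and 1.07% of all genes, so that this count too rests on a single gene. At an unadjusted p under 0.05 DESeq2 also counted 1 of the 12 (8.33%), against 9.8% of all genes. The gene called was Socs3, an inhibitor of Janus kinase signalling best known after interleukin-6. Socs3 had 55021, 53165 and 55069 normalized counts after IC against 46527, 45995 and 47746 (log2 fold change 0.22, adjusted p = 0.0305 in DESeq2 and 0.267 in edgeR), and the call was lost without IC replicate 1 (adjusted p = 0.108), IC replicate 3 (0.0644) or Vehicle replicate 2 (0.0824). Usp18, which blocks signalling at IFNAR2, had a log2 fold change of 0.62 that did not pass (adjusted p = 0.710), and of 0.12 without IC replicate 3.

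Further downstream, the list of interferon alpha and beta targets held 34 tested genes. Of these, 8 (23.5%) rose and none fell in DESeq2, against 1.03% and 1.07% of all genes, and edgeR and limma called none. At an unadjusted p under 0.05 DESeq2 counted 22, edgeR 25 and limma 18 of the 34, and 1952, 1920 and 2050 of all 19925 genes. Their median log2 fold change was 0.52, against -0.002 for all genes. Helz2, a helicase and transcriptional coactivator, rose by 0.35 on the log2 scale (adjusted p = 0.000870 in DESeq2) and kept its call in all 6 fits without 1 library. The other 7 were Ifit3b (1.74), Mx2 (0.54), Oas1a (1.18), Oasl1 (1.79), Eif2ak2 (0.52), Zbp1 (0.72) and Trafd1 (0.32), given by log2 fold change, with DESeq2 adjusted p from 0.000102 to 0.0468. Without IC replicate 3 the same log2 fold changes were 1.15 for Ifit3b, 0.42 for Mx2, 0.64 for Oas1a, 0.73 for Oasl1, 0.30 for Eif2ak2, 0.33 for Zbp1 and 0.24 for Trafd1, and that of Helz2 was 0.30. Each of these 7 lost its call without at least 1 library, and 6 of them, all but Ifit3b, lost it without IC replicate 3. The highest adjusted p in a DESeq2 fit without 1 library was 0.155 for Ifit3b (without Vehicle replicate 2), 0.0633 for Mx2, 0.410 for Oas1a, 0.775 for Oasl1, 0.340 for Eif2ak2, 0.470 for Zbp1 and 0.261 for Trafd1. The number of targets called was 6, 10 and 2 without IC replicates 1, 2 and 3 and 4, 3 and 3 without Vehicle replicates 1, 2 and 3. Ifit3b is a near copy of other Ifit genes, so its counts are uncertain.

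The level of these targets also differed between libraries of the IC group. Their geometric mean normalized count was 1184, 966 and 2215 in IC replicates 1 to 3 and 795, 973 and 881 in Vehicle replicates 1 to 3. IC replicate 3 was far above the rest, IC replicate 1 moderately so, and IC replicate 2 was inside the Vehicle range. IC replicate 3 was the highest library for 33 of the 34 targets, against 18.2% of all genes, and for 3 of the 10 regulatory factors and receptors, Irf5, Irf7 and Ifnar1. Mx1, an antiviral GTPase of this list, had 318, 174 and 2373 normalized counts after IC and 130, 197 and 131 after Vehicle. Without IC replicate 3 the median log2 fold change of the 34 targets was 0.28, with 32 estimates above 0 and 2 genes called, and the log2 fold change of Mx1 went from 2.64 to 0.68. For the 10 genes described here the geometric means were 2608, 2708 and 2859 after IC and 2551, 2643 and 2587 after Vehicle, so the groups overlapped and the difference between libraries was small beside that of the targets.

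Among 31 tested targets of interferon gamma and IRF1, none rose and 1 (3.23%) fell, near the share of all genes called (2.1%, with 1.07% lower). At an unadjusted p under 0.05 DESeq2 counted 8 of the 31 (25.8%), against 9.8% of all genes, edgeR 7 and limma 5. Of the 31 estimates, 25 were above 0 with all libraries and 14 without IC replicate 3. Vcam1, an adhesion molecule for leukocytes, had 4078, 3899 and 4046 normalized counts after IC and 4738, 5900 and 5500 after Vehicle, and was lower in all 3 IC libraries (log2 fold change -0.42, standard error 0.10, adjusted p = 0.00146 in DESeq2 and 0.0856 in edgeR). That call held in all 6 fits without 1 library. Summed endothelial and skeletal muscle markers were also lower in all IC libraries. DESeq2 called 3 of 9 tested endothelial and 4 of 16 tested muscle markers lower, against 1.07% of all genes. The smallest adjusted p in each list was that of Kdr (log2 fold change -0.70, adjusted p = 3.45e-05) and Myf5 (-2.08, adjusted p = 0.000122). Others overlapped between the groups, such as Vwf (-0.04) and Tnnt3 (-0.15). The part of these cells in the Vcam1 value was not tested. The guanylate-binding protein gene Gbp3 (log2 fold change 0.62, adjusted p = 0.114) and the class I gene H2-K1 (0.23, adjusted p = 0.117) came nearest to the threshold among the rest, with 0.26 and 0.18 without IC replicate 3. The list's median was 0.13 with all libraries and -0.04 without IC replicate 3, which was the highest library for 24 of the 31 genes.

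**Figure D5:**
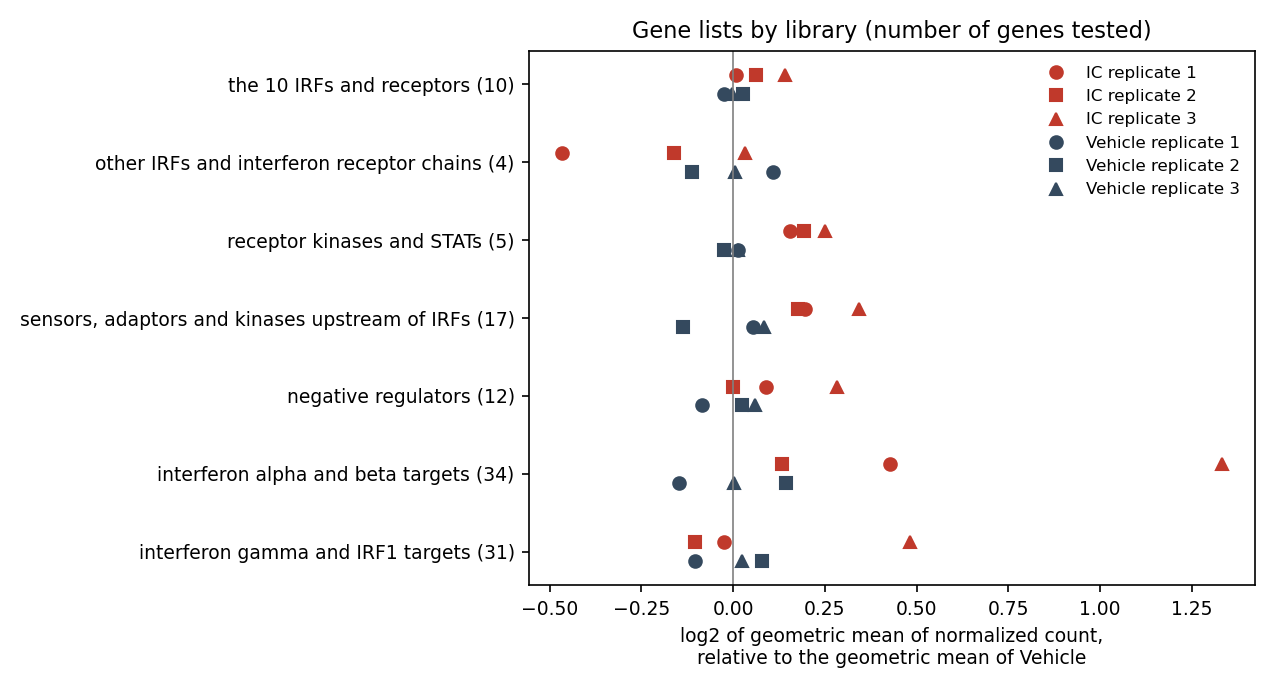
Geometric mean of normalized counts for each gene list (number of tested genes in parentheses) in each library, as a log2 difference from the geometric mean of the 3 Vehicle libraries. IC replicate 3 (red triangle) lies far to the right for the 34 interferon alpha and beta targets, at a geometric mean of 2215 normalized counts, while the 10 regulatory factors and receptors stay between 2551 and 2859 in all 6 libraries.

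Genes whose pattern over the 6 libraries was most like that of Irf7 or Irf1 were listed by Pearson's r of log2 normalized counts, over 13434 genes with a mean of at least 100. The highest for Irf7 were Ifi35 (r = 0.998), Txn1 (0.996), Med24 (0.995), Sec22b (0.995) and Oasl2 (0.993). All 5 had their highest value in IC replicate 3, as Irf7 did, which follows from how they were chosen. The highest for Irf1 were Adam33 (r = 0.996), Pde7a (0.992), Nisch (0.991), Ramp1 (0.990) and Zyx (0.987). Adam33, a metalloprotease expressed by mesenchymal cells, was the one among these 10 that rose (log2 fold change 0.34, adjusted p = 0.0488 in DESeq2). These correlations are descriptions over 6 libraries that differ in treatment and in total counts. Because the 10 genes were chosen by likeness to Irf7 or Irf1, their values are no separate evidence for those patterns.

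Markers of other cell types also moved with the groups. Summed endothelial markers were at 207 to 282 CPM after IC and 290 to 335 CPM after Vehicle, and skeletal muscle markers at 27.2 to 65.3 CPM and 68.2 to 163 CPM, both lower in all IC libraries. The low lymphocyte sum given above was also lower in all IC libraries. Summed chondrocyte and bone markers were higher in all IC libraries, at 746 to 841 CPM against 465 to 695 CPM. Most of that sum was Comp (366 to 720 CPM), which did not pass the test (log2 fold change 0.39, adjusted p = 0.577 in DESeq2). In that list Acan rose (1.34, adjusted p = 0.00290), whereas Col2a1 was lower in all IC libraries (-0.75, adjusted p = 0.107). Summed mural cell, Schwann cell and neutrophil markers overlapped. DESeq2 nonetheless called 1 of 7 tested mural cell and 1 of 7 tested Schwann cell markers lower, against 1.07% of all genes, and none higher. They were Myh11 (log2 fold change -0.96, adjusted p = 0.0131 in DESeq2) and Ngfr (-1.82, adjusted p = 0.00250). The part of all these cell types in the values of the genes described above was not tested.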

How the data were processed

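RNA of sorted synovial fibroblasts from 3 IC and 3 Vehicle samples was sequenced as paired reads of 150 bases on a NovaSeq. The authors deposited raw counts, not normalized, of the reads that fell on each gene. Per the labels and the study's methods, the authors trimmed reads with Trim Galore, checked them with FastQC, aligned them to mm10 with HISAT2 and counted them with featureCounts. Versions, annotation and strand setting are not given in the sources used here, so overlapping genes are uncertain, and the labels and methods name different library kits. The methods also name batch removal with sva, without the step.

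Groups and replicate numbers came from the sample labels. The 6 per-sample files were identical to the columns of the combined table. A gene was kept where 3 or more libraries had 10 or more counts (19925 of 24348). IC was compared with Vehicle by the Wald test of DESeq2 (version 1.42.0, R 4.3.3) with default settings, since the study's methods name that tool and workflow. Treatment was the only term, and the sva step was left out of this fit. Calls were made at a Benjamini-Hochberg adjusted p under 0.05, and 3870 genes received no adjusted p. Normalized counts are counts divided by the size factor, and intervals of 95% use the normal approximation. RPKM used total counts and merged exons of protein-coding transcripts in GENCODE M21 (GRCm38). Promoter windows came from RefSeq (GRCm38.p6). Alternatives were edgeR (4.0.16), limma-voom (3.58.1), other scalings and filters, a block for the replicate number, a fit with 1 surrogate variable (sva 3.50.0), and leaving out each library. The scripts were tested on simulated data.

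Total counts were 40114331 to 56714304 per library, and Irf5, at 158 to 236 normalized counts, was the least precise of the 10 genes. Same-numbered samples did not deviate together (correlations of deviations -0.09, -0.16 and 0.03 over 13435 genes), so the numbers were not taken as pairs. Text names all 10 genes, of each list every gene called and otherwise the 3 tested genes with the smallest adjusted p (some others were named after their values were seen), and the 5 genes most like Irf7 and Irf1. Some genes of these lists are not reported here, and the lists were counted without them. The genes and lists were chosen with earlier results of these data known.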

Additional observations from a re-analysis of the deposited data

How the results depend on the processing

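Over 15 alternatives per gene, Irf1, Irf2, Irf7, Irf8, Irf9 and Ifnar2 kept their direction in all. Irf7 was past the threshold in 3 alternatives and Irf9 in 2. Scaling to total counts and dropping genes with a mean under 100 each called both (2 of the 10), and leaving out 1 library called 0 to 1. The cause was not tested. Log2 fold changes near 0 changed sign for Irf3 (-0.073 with 1 surrogate variable, -0.089 without Vehicle replicate 2), Irf5 (-0.094 without IC replicate 3, -0.041 without Vehicle replicate 3), Ifnar1 (-0.002 without IC replicate 3) and Ifngr1 (-0.015 without IC replicate 2, -0.106 without Vehicle replicate 1). Over the fits without 1 library they ranged from -0.089 to 0.096 for Irf3, -0.094 to 0.186 for Irf5, -0.002 to 0.103 for Ifnar1 and -0.106 to 0.104 for Ifngr1.

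Of all genes, edgeR called 37 (12 higher, 25 lower) and limma 62 (25 higher, 37 lower), and leaving out 1 library gave 282 to 671 (124 to 328 higher, 127 to 343 lower). In edgeR and limma, 0 genes were called in the lists of kinases and STATs, sensors, negative regulators, alpha and beta targets, and gamma and IRF1 targets. With 1 surrogate variable, the sensor called was Dhx58 in place of Ddx58, and 0 negative regulators and 5 alpha and beta targets were called. Leaving out 1 library gave 0 to 2 kinases and STATs, 0 to 2 sensors, 0 to 1 negative regulators, 2 to 10 alpha and beta targets and 1 to 2 gamma and IRF1 targets.

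The replicate block gave log2 fold changes of 0.44 for Irf7 (DESeq2 adjusted p = 0.0702) and 0.26 for Irf9 (adjusted p = 0.276), 0 called negative regulators, 4 alpha and beta targets and 320 genes in all. Samples share only a number, so it is no paired design. With 3 libraries per group, the 95% intervals given are approximate. As the libraries may not be separate mice, the intervals may be too narrow for the spread between mice.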
